A study of Arabidopsis thaliana with 12 samples.

Results

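The 100 brightest array probes of paraquat-treated Arabidopsis thaliana plants kept in darkness are described here, together with their values after return to light. They are 100 of 3439 probes, and they are the probes with the highest mean intensity over the 6 dark columns of the authors' table. The choice left out 5 probes, which name the genes PSAN, CCL, LHB1B2, AT5G58330 and PSBW. All plants were wild type, of the Landsberg ecotype, and all were treated with 50 µM paraquat. The dark group (6 columns) was held in darkness for 12 h, and the light group (6 columns) was sampled 30 min after light returned at the end of such a dark period. No untreated plants are among these columns, and no label gives the age, organ or pooling of the plants or tells whether the columns stem from separate plants, so the spread between columns may be technical.

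Paraquat is a herbicide that accepts electrons from photosystem I in illuminated chloroplasts and hands them to oxygen, which forms superoxide. In darkness photosystem I supplies no electrons, so return to light is the moment at which the compound starts to act through photosynthesis. In green tissue the messenger pool is uneven, with a small number of transcripts, many for chloroplast proteins, making up a large part of it. The brightness of a probe also depends on the probe itself, for instance on its length, its base composition and the related genes it binds. The 100 are therefore called the brightest probes and not the most abundant transcripts, and levels are compared between columns for 1 probe at a time.

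Column totals of deposited intensity ran from 3466 to 3664. The 100 probes held 33.6% ± 0.92 of the column total in darkness and 33.0% ± 0.869 in light (SD, n = 6). In RNA from whole tissue, fewer cells of a type and less RNA per cell cannot be told apart. All 100 were tested for light against dark, and none was listed at 0 in any column. The list changed little with its definition, since 98 of the 100 were also chosen by the median of the dark columns and 89 were among the 100 brightest by the light mean. In each single column, between 85 and 96 of the 100 were among that column's own 100 brightest probes, and 65 were so in all 12 columns. Intensity fell off steeply with rank: the first 5 probes took 11.0% of the mean dark total, the first 20 took 21.1%, the first 50 took 27.7% and all 100 took 33.6%.

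**Figure D1:**
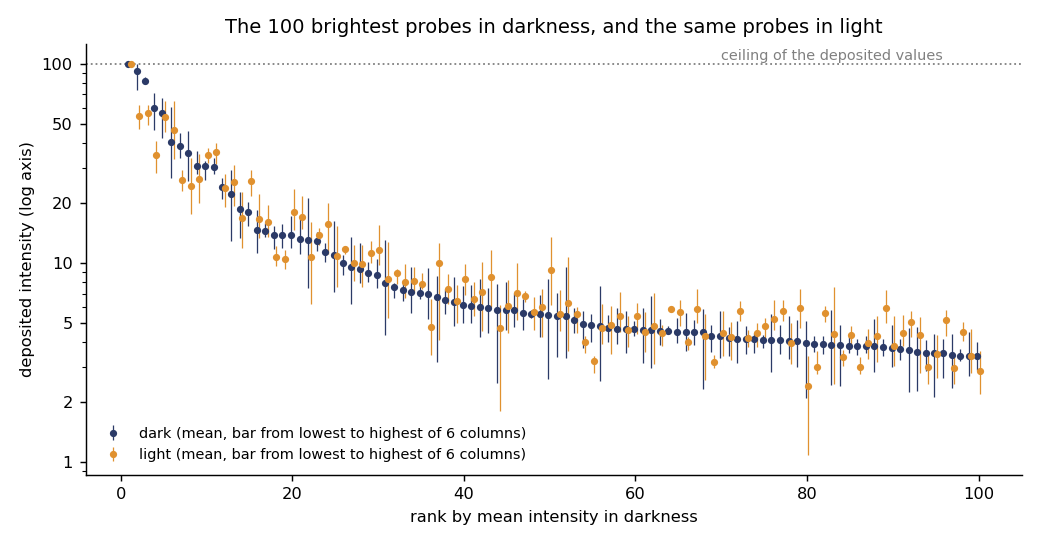
Deposited intensity (log axis) of the 100 probes against their rank by dark mean, with dark and light means as points and bars from the lowest to the highest of 6 columns. Dark means run from 99.4 at rank 1 to 3.41 at rank 100, and the light means of ranks 2, 3 and 4 (54.8, 56.2 and 34.6) lie below all their dark columns.

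Values at the ceiling of 100 occurred in 2 probes. Probe 3499, which carries no gene name, was at 100 in 5 dark and 6 light columns and at 96.2 in dark column 2. Its light and dark levels cannot be compared, because a value at the ceiling gives only a lower bound. Probe 1803 was at 100 in dark columns 5 and 6 and below it in the other 10 columns. This probe names AT5G51520 and AT4G25250, both of the family of pectin methylesterase inhibitors, proteins that restrain enzymes of cell wall pectin.

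The brightest named probes were lower in light in the values as deposited. Probe 1803 had a lowest, median and highest intensity of 73.4, 98.3 and 100 in darkness and of 47.2, 54.3 and 62.1 in light. Every light column lay below every dark column, and 2 of the dark values are only bounds. Probe 1431 names CSLC12 with AT4G07950 and AT4G07940, and ranged from 79.8 (median 82.1) to 85.2 in darkness and from 49.5 (median 56.6) to 61.6 in light. CSLC12 belongs to a family of Golgi enzymes that make the glucan backbone of xyloglucan, a wall polysaccharide, and the 3 genes lie next to each other in the RefSeq table. The groups of this probe do not overlap either. Probe 3633 names AT3G09850, for a protein with a G-patch domain, which is found in RNA-binding proteins. Its dark columns ran from 46.4 to 71.1 (median 64.3) and its light columns from 28.1 to 40.7 (median 35.4), again with no overlap.

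Whether these 3 probes passed the test turned on the scaling of the columns. The main fit used quantile-normalised columns, in which the highest ranks are given nearly the same value in every column, so a fall shared by the top ranks is removed. With the values as deposited, the log2 differences of light minus dark were -0.75, -0.55 and -0.78 for probes 1803, 1431 and 3633 (limma adjusted p = 0.00326, 0.00214 and 0.00939). In median-centred columns they were -0.70, -0.50 and -0.73 (limma adjusted p = 0.00814, 0.00555 and 0.00911). After quantile normalisation they were -0.20, -0.17 and -0.54, none past the threshold of 0.05 on the adjusted p (limma adjusted p = 0.309, 0.204 and 0.0661). When the replicate number was fitted as a block, probe 3633 passed (limma adjusted p = 0.0343) and the other 2 did not (0.124 and 0.0734). This replicate block counts each number as independent, and the fits without a block count each column as independent. Consecutive numbers were close in their values, so p-values from the replicate block and from the fits without a block may be too small, here and below. With consecutive numbers as a random block probe 3633 did not pass (limma adjusted p = 0.199).

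Of the next ranks, probe 4141 had dark columns from 42.2 to 66.9 and light columns from 45.4 to 64.6, which overlap widely. Probe 2869 ran from 26.7 to 60.5 in darkness and from 33.2 to 64.9 in light. Probe 3100 ran from 33.7 to 44.7 (median 37.5) in darkness and from 23.0 to 29.2 (median 25.9) in light, with no overlap. Of these 3 unnamed probes only probe 3100 passed the threshold in the main fit (log2 -0.49 ± 0.081 SE, limma adjusted p = 0.00787, lower in 6 of 6 numbers). With the replicate block probes 4141 and 2869 passed as well, with log2 differences of 0.30 and 0.40 (limma adjusted p = 0.0449 and 0.0238). Neither passed with consecutive numbers as a random block (limma adjusted p = 0.454 and 0.669). For probe 4141 the difference was -0.07 in the values as deposited, so its direction flipped with the scaling. Probe 514 ran from 25.8 to 45.8 in darkness and from 17.7 to 33.4 in light (log2 -0.58, limma adjusted p = 0.185, and 0.029 with the block).

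Probe 3557 names AT2G27290 and was at 27.9 to 33.5 (median 29.7) in darkness and 31.5 to 40 (median 37.0) in light. Its log2 difference was 0.36 (limma adjusted p = 0.0773, 0.0188 with the block). Probe 3215 names AT4G31530, for a protein with an NAD(P)-binding Rossmann fold, and was at 15.4 to 20.3 (median 18.6) in darkness and 21.7 to 29.3 (median 26.4) in light. Its groups did not overlap, and its log2 difference was 0.37 after quantile normalisation (limma adjusted p = 0.0523, and 0.0327 with the block) and 0.52 as deposited (limma adjusted p = 0.00897). The unnamed probes 265, 910, 2881, 621, 2689, 2677, 2188 and 1757 of the first 25 ranks had main log2 differences between -0.30 and 0.31, none past the threshold with or without the block. For probes 910 and 1757 these were -0.10 and -0.18, and 0.01 and 0.04 in median-centred columns. Probes 2398, 812, 3229 and 3505 had differences of 0.23, 0.33, 0.30 and 0.26, and probe 175 of -0.45. These 5 passed only with the block (limma adjusted p between 0.0132 and 0.0483).

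In the values as deposited, the share of the column total moved in opposite directions along the list, in ranks grouped after the values had been seen. Ranks 1 to 5 took 10.5% to 11.7% of the dark columns and 8.26% to 8.97% of the light columns. Ranks 6 to 20 took 9.18% to 11.0% in darkness and 9.75% to 11.1% in light. Ranks 21 to 100 took 12.2% to 12.7% in darkness and 13.6% to 15.2% in light. The first and the last of these groups do not overlap between dark and light, while the middle one does. The rise of the last group depended on the scaling. Of its 80 probes, 59 had a log2 difference above 0 as deposited and 64 in median-centred columns. After quantile normalisation only 35 did, with a median of -0.03. The median of ranks 1 to 5 was -0.55 as deposited and -0.17 after quantile normalisation. Dark values chose the ranks, which favours a lower share in light at the top, so the ranks were also formed by the light mean. Formed that way, ranks 1 to 5 took 10.4% ± 0.708 in darkness and 8.93% ± 0.452 in light, and ranks 21 to 100 took 12.3% ± 0.233 and 14.1% ± 0.748 (SD, n = 6). Both differences had the same direction in 6 of 6 numbers under either choice. The choices are not independent, since probes 3499, 1803, 1431 and 4141 are among the first 5 in both. Choosing on light values can also favour a higher share in light. Ranks 1 to 5 by light mean overlapped between the groups, with 9.55% to 11.4% in darkness and 8.48% to 9.60% in light. Probe 3499, at the ceiling, is among the first 5 in both, as is probe 1803, at the ceiling in dark columns 5 and 6. The shares of the first 5 and of all 100 are therefore lower bounds, and those of the other ranks are upper bounds, except in dark column 2. That column had no value at the ceiling. The ceiling also enters the column total, by which every share is divided. How far, and in which direction, the true shares differed between dark and light is therefore not known, for the first 5 or for the other ranks. No test is given, because the members were chosen on these values.

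**Figure D2:**
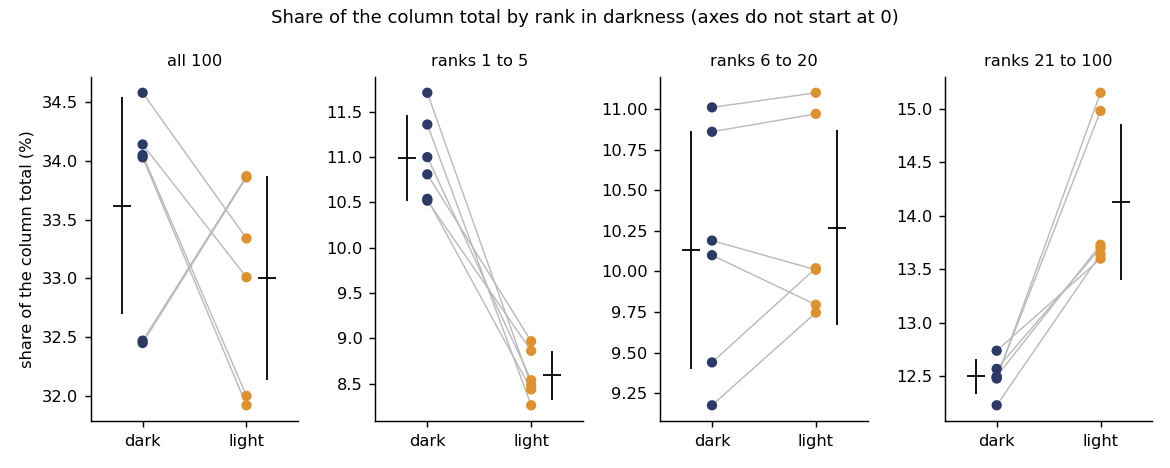
Share of the column total (%, axes not starting at 0) taken by all 100 probes and by 3 ranges of dark rank, with lines joining columns of the same replicate number and black marks for mean ± SD of 6 columns. Ranks 1 to 5 have a mean of 11.0% in darkness and 8.59% in light and ranks 21 to 100 of 12.5% and 14.1%, while the share of all 100 is higher in light in 2 numbers and lower in 4. Values at the ceiling make the shares of ranks 1 to 5 and of all 100 lower bounds, and those of the other ranks upper bounds, in every column but dark column 2.

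For the whole list the direction depended on the scaling. The median log2 difference of the 100 was -0.03 after quantile normalisation, 0.11 as deposited and 0.16 in median-centred columns, beside 0.002, -0.03 and 0.02 over all 3409 probes tested. Differences above 0 were found for 45, 68 and 74 of the 100 under these scalings. In the values as deposited, 43 of the 100 were higher in light in 6 of 6 numbers and 16 were lower in 6 of 6, against 10.1% and 12.1% of all probes tested. Unlike the 100, the probes tested include dim ones and ones with zeros in some columns.

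In the main fit 12 of the 100 passed the threshold, 3 higher and 9 lower in light, where 5.78% of all probes tested were called (2.61% higher and 3.17% lower). As deposited 17 passed, 7 higher and 10 lower (5.25% of all probes, 1.82% higher and 3.43% lower), and in median-centred columns 18 passed, 11 higher and 7 lower (6.13%, with 3.2% higher and 2.93% lower). There were 7 probes, 3 higher and 4 lower, that passed under all 3 scalings (7 of 100, against 4.14% of all probes). With the replicate block 33 passed, 17 higher and 16 lower (13.1% of all probes, 6.69% higher and 6.45% lower), among them all 12 of the main fit. The replicate block on the values as deposited called 43, 27 higher and 16 lower (12.7% of all probes, 5.57% higher and 7.1% lower). With consecutive numbers as a random block 6 passed, 1 higher and 5 lower (1.26%, with 0.557% higher and 0.704% lower). Lost with it were probes 3100, 2230, 4586, 2464, 3825 and 885 (limma adjusted p from 0.0507 to 0.149). The 21 members called with the replicate block but not in the main fit did not pass with the random block. With consecutive numbers averaged limma called 0 members and 0 of all probes, with 16 members and 348 probes at an unadjusted p under 0.05. The dark values in this difference also chose the members, so the counts are a description: by light mean 8 passed in the main fit, 3 higher and 5 lower.

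**Figure D3:**
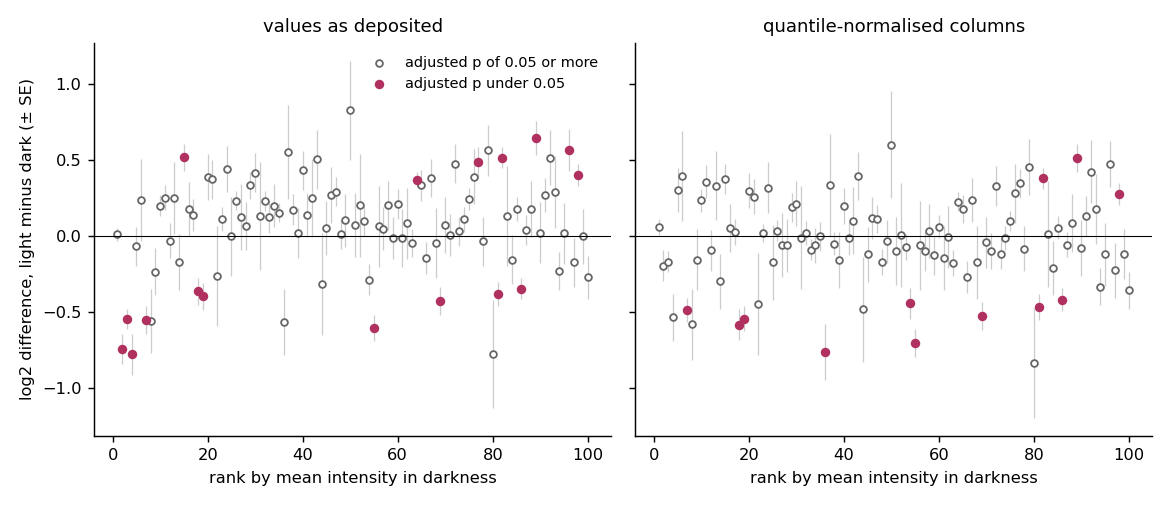
Log2 difference of light minus dark (± SE) of each of the 100 probes against its dark rank, with the values as deposited on the left and quantile-normalised columns on the right, filled where the limma adjusted p was under 0.05. Filled points number 17 on the left, including ranks 2, 3 and 4, and 12 on the right.

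Among the 9 probes past the threshold and lower in light in the main fit, probe 2692 had the smallest adjusted p. It names RH39, a chloroplast RNA helicase of the DEAD-box family that takes part in maturing the large ribosomal RNA of the plastid, and AT3G06980, a second helicase of that kind. Its lowest, median and highest intensities were 4.00, 4.98 and 5.52 in darkness and 2.79, 3.31 and 3.42 in light. The groups do not overlap, and the probe moved from rank 55 in darkness to rank 113 in light (log2 -0.71 ± 0.090 SE, 0.613-fold, limma adjusted p = 0.00268). It passed under all 3 scalings and with the random block (limma adjusted p = 0.0139). Probe 2709 names AT1G08845, AT5G27820 and AT3G20230, genes of the ribosomal protein L18p/L5e family. It was at 3.43 to 4.16 (median 3.79) in darkness and 2.76 to 3.36 (median 2.98) in light, with no overlap (log2 -0.42 ± 0.076 SE, limma adjusted p = 0.0107, and 0.0535 in median-centred columns).

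Probe 2956, which names AT4G24026 and AT4G10810, was at 11.7 to 15.4 (median 13.8) in darkness and 9.64 to 12.1 (median 10.4) in light. The highest 2 light columns reach into the dark range (log2 -0.58 ± 0.101 SE, limma adjusted p = 0.00997, and 0.0585 in median-centred columns). Probe 2230, which names AT4G35660, was at 5.23 to 9.43 (median 6.20) in darkness and 3.44 to 6.58 (median 4.26) in light. Its groups overlap, although light was lower in 6 of 6 numbers (log2 -0.77 ± 0.184 SE, limma adjusted p = 0.0378, and 0.159 as deposited and 0.165 in median-centred columns). Leaving out 1 column ended its call in 8 of 12 cases, with a limma adjusted p of up to 0.0752; it stayed only without dark column 5 or 6 or light column 1 or 2.

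The other 5 probes past the threshold and lower in light carry no gene name, probe 3100 among them. Probe 4125 was at 11.8 to 15.7 in darkness and 9.36 to 11.6 in light (log2 -0.55, limma adjusted p = 0.00497). Probe 3094 was at 3.58 to 4.90 and 2.97 to 3.47 in the same order (log2 -0.53, limma adjusted p = 0.00997). Neither overlapped between groups, and both passed under all 3 scalings. Probe 2464 was at 3.56 to 4.29 in darkness and 2.78 to 3.62 in light (log2 -0.47, limma adjusted p = 0.0118, and 0.0657 in median-centred columns). Probe 4586 was at 3.73 to 5.72 in darkness and 3.55 to 4.31 in light (log2 -0.45, limma adjusted p = 0.0279), was lower in 5 of 6 numbers, and lost its call as deposited (limma adjusted p = 0.128), in median-centred columns (0.314) and when 1 column was left out, in 7 of 12 cases (up to 0.0615). It stayed without dark column 1, 2 or 6 or light column 5 or 6.

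The 3 probes past the threshold and higher in light, 4445, 3825 and 885, are all unnamed and passed under all 3 scalings. Probe 4445 was at 3.42 to 4.13 (median 3.79) in darkness and 5.0 to 7.34 (median 5.40) in light, and moved from rank 89 to rank 49 (log2 0.51 ± 0.091 SE, 1.43-fold, limma adjusted p = 0.0104). Probe 3825 was at 3.47 to 4.28 (median 3.91) in darkness and 5.04 to 6.07 (median 5.65) in light (log2 0.38 ± 0.072 SE, limma adjusted p = 0.0135). Probe 885 was at 3.23 to 3.71 in darkness and 4.08 to 5.05 in light (log2 0.27 ± 0.071 SE, limma adjusted p = 0.047), with its call lost on leaving out 1 column in 9 of 12 cases (limma adjusted p of up to 0.0957). It stayed without dark column 1 or 2 or light column 3. None of the 3 overlapped between the groups. In the values as deposited, 8 of the 100 lay wholly higher in light and 8 wholly lower, against 1.85% and 2.82% of all probes tested. After quantile normalisation 2 lay wholly higher and 7 wholly lower, against 1.94% and 2.35%.

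**Figure D4:**
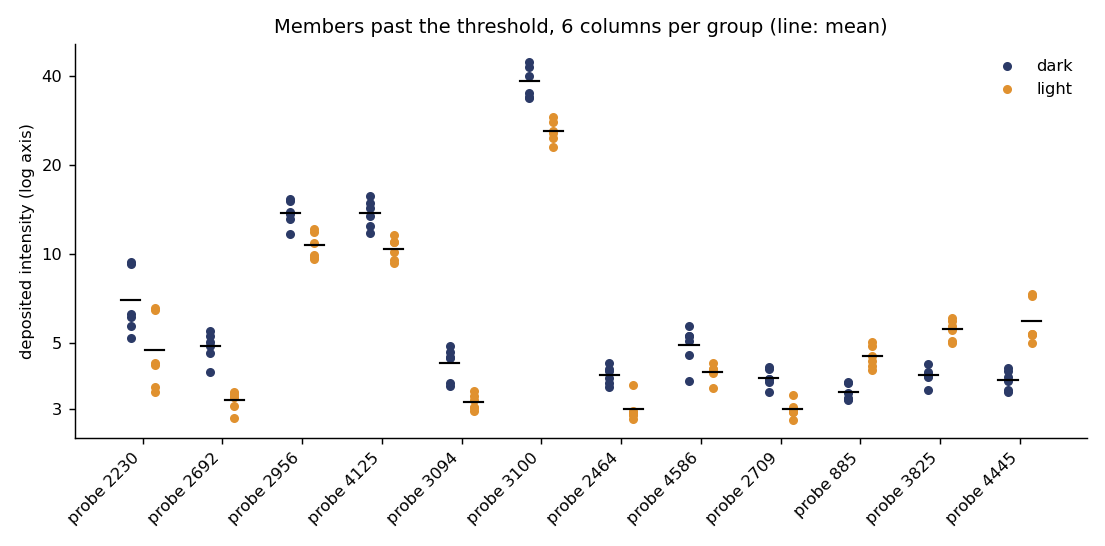
Deposited intensity (log axis) of the 12 probes past the threshold in the main fit, with 6 dark and 6 light columns as points and the means as lines. Probes 885, 3825 and 4445 lie wholly higher in light, probes 2692, 4125, 3094, 3100 and 2709 lie wholly lower, and probes 2230, 2956, 2464 and 4586 overlap.

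The platform annotation, which can be old, named a gene for 32 of the 100 probes, 13 with 1 gene and 19 with several, against 45.4% of all probes. The 59 genes named were all found in the RefSeq gene table (assembly TAIR10.1), used for names and neighbours only. Symbols and synonyms of the 100 matched none of 16 patterns for functions such as the antenna, the photosystems, the Calvin cycle or plastid ribosomes. The same patterns matched only 55 of all 3439 probes, with 0 for plastid ribosomes. Because those tables give no product descriptions and 68 probes have no name, this says little about what the 100 encode. The choice had also left out the probes that name PSAN, LHB1B2 and PSBW. The functions below are background knowledge, and a probe that names several genes cannot tell which of them it measured.

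Chloroplast functions were named by a few probes beside RH39. NdhS is a subunit of the chloroplast NADH dehydrogenase-like complex, which passes electrons around photosystem I, and its probe 77 was at 6.65 to 7.95 (median 7.74) in darkness and 7.81 to 9.33 (median 9.02) in light. Light was higher in 6 of 6 numbers, with overlap between the groups. The log2 difference of NdhS was 0.02 after quantile normalisation (limma adjusted p = 0.944), 0.23 as deposited (0.0764) and 0.27 in median-centred columns (0.0382). CUTA, a copper-binding protein of the chloroplast, was at 3.27 to 4.16 in darkness and 3.81 to 5.49 in light, which overlap (log2 0.13, limma adjusted p = 0.666). AT4G17070, annotated as a peptidyl-prolyl isomerase, an enzyme of protein folding, was at 3.20 to 8.55 in darkness and 4.08 to 12.5 in light (log2 0.34, limma adjusted p = 0.657, and 0.0329 with the block).

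Genes of RNA handling and translation were named by several members. Probe 1655 names AT1G80620 and AT1G15810, of the ribosomal protein S15 family, and was at 3.51 to 4.88 (median 3.98) in darkness and 5.12 to 6.52 (median 5.55) in light. Its groups do not overlap (log2 0.35, limma adjusted p = 0.0566, 0.0262 with the block and 0.0199 as deposited). AT3G13150 and AT3G26630 encode pentatricopeptide repeat proteins, a family that binds organelle RNA. The first was at 4.24 to 6.89 in darkness and 4.27 to 7.40 in light, and the second at 2.28 to 4.77 and 2.79 to 5.35, with log2 differences of -0.04 and 0.18 (limma adjusted p = 0.931 and 0.743). For AT3G13150 the difference was 0.10 as deposited.

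Wall and sugar genes beyond probes 1803 and 1431 were named by 3 more. Probe 3553 names AT1G06890 and AT2G30460, transporters of UDP-xylose into the Golgi, and was at 4.46 to 7.49 in darkness and 6.04 to 11.7 in light (log2 0.39, limma adjusted p = 0.184, and 0.0404 with the block). AT4G19900, of a glycosyltransferase family, was at 5.60 to 9.50 and 7.03 to 9.56 (log2 -0.06, and 0.20 as deposited; limma adjusted p = 0.825 and 0.504). AT1G35510, of the O-fucosyltransferase family, was at 3.63 to 5.63 in darkness and 3.65 to 4.24 in light (log2 -0.27, limma adjusted p = 0.17, and 0.0483 with the block). All 3 overlap between the groups.

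Signalling, targeting and protein turnover were named by a further group, in which no probe passed the main threshold. Probe 2145 names OPCL1, a ligase of jasmonate synthesis in peroxisomes, with 4 other genes (AT1G20480, AT5G63380, AT4G19010 and AT4G05160), and was at 2.26 to 4.73 in darkness and 4.25 to 5.72 in light (log2 0.42, limma adjusted p = 0.287, and 0.0572 with the block). Probe 4444 names PHOS32 and PHOS34, phosphoproteins of the universal stress protein family, and was at 3.52 to 5.71 in darkness and 3.77 to 5.43 in light (log2 -0.13, and 0.03 in median-centred columns; limma adjusted p = 0.665 and 0.933). Probe 2426 names AT1G01910, AT5G60730 and AT3G10350, related to the GET3 ATPase that delivers tail-anchored proteins to membranes, with a log2 difference of -0.12 (0.05 as deposited). These probes overlap between the groups.

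Probe 1112 names AT5G55970 and AT4G26580, of the RING family of ubiquitin ligases, and AT4G39760 is an F-box gene with kelch repeats, with log2 differences of -0.06 and -0.18 (limma adjusted p = 0.755 and 0.256). Probe 4399 names AT1G59850, AT1G27210, AT5G62580 and AT2G07170, for ARM-repeat proteins, and probe 723 names AT5G27880 and AT5G01860, for zinc finger proteins, with differences of 0.10 and 0.05 (limma adjusted p = 0.874 and 0.768). For probe 1112 the difference was 0.04 as deposited.

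Probes 1652 and 938 name the same pair of genes, AT1G71970 and AT1G22680. Probe 1652 was at 4.38 to 4.80 in darkness and 5.66 to 6.09 in light, without overlap, and probe 938 was at 3.74 to 4.35 and 4.2 to 5.27, with overlap. Their log2 differences were 0.22 and 0.10 in the main fit (limma adjusted p = 0.0578 and 0.464) and 0.37 and 0.24 as deposited (limma adjusted p = 0.00326 and 0.0859). With the block probe 1652 passed (limma adjusted p = 0.0352) and probe 938 did not (0.371). The remaining named probes are 2283 (AT1G70160, AT5G54870 and AT4G27020), 3203 (AT4G31510 and AT2G24550), 3033 (AT2G17043, AT2G17080 and AT2G17070), 3787 (AT1G62250) and 971 (AT5G05250 and AT3G56360). Their main log2 differences were -0.09, -0.10, 0.06, 0.24 and -0.18, none past the threshold, and those of probes 2283 and 3203 were 0.12 and 0.07 as deposited.

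The spread of these probes followed the replicate numbers of the labels. The coefficient of variation over the 6 dark columns had a median of 16.4%, against 16.1% for the 2554 probes above the lower quartile of intensity without zeros. Across the 100 probes, a dark column and the light column of the same number deviated from their group means together (correlations of 0.518 to 0.844), and in all 12 columns no other number gave a higher correlation. Consecutive numbers (1 with 2, 3 with 4, 5 with 6) were also close, with a median ratio within them of 1.05 in darkness, against 1.11 for the 2554. Between these pairs the dark means differed by at least 1.5-fold for 38 of the 100 probes, against 23.4% of the 2554. They differed by at least 2-fold for 11 of the 100, against 146 of the 2554. The labels do not say what a number stands for.

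Probe 2869 shows the pattern at high intensity. Its dark columns 1 to 6 were at 27.2, 26.7, 32.2, 34.3, 60.4 and 60.5, and its light columns at 33.3, 33.2, 40.4, 42.1, 64.9 and 63.6. Numbers 5 and 6 were the highest in both groups. Probe 1826 had the widest spread between pairs, 3.0-fold in darkness, from 2.61 in column 2 to 8.29 in column 5, and in light it ran from 6.13 to 13.6 (log2 0.60, limma adjusted p = 0.388). Probe 175 ran the other way, from 21.1 in dark column 1 to 7.49 in dark column 6. Within numbers 1 and 2 some probes differed as well, and alike in both groups: probe 4184 had 7.79 and 2.50 in dark columns 1 and 2 and 6.14 and 1.82 in light columns 1 and 2 (log2 -0.48, limma adjusted p = 0.496, and 0.008 with the block), and probe 2811 had 3.98 and 9.50 in darkness and 4.50 and 10.7 in light. For probe 4184 the limma adjusted p was 0.805 with consecutive numbers as a random block. Probes 1826, 4184 and 2811 and the 6 probes of the plot by replicate number were chosen after their values had been seen.

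**Figure D5:**
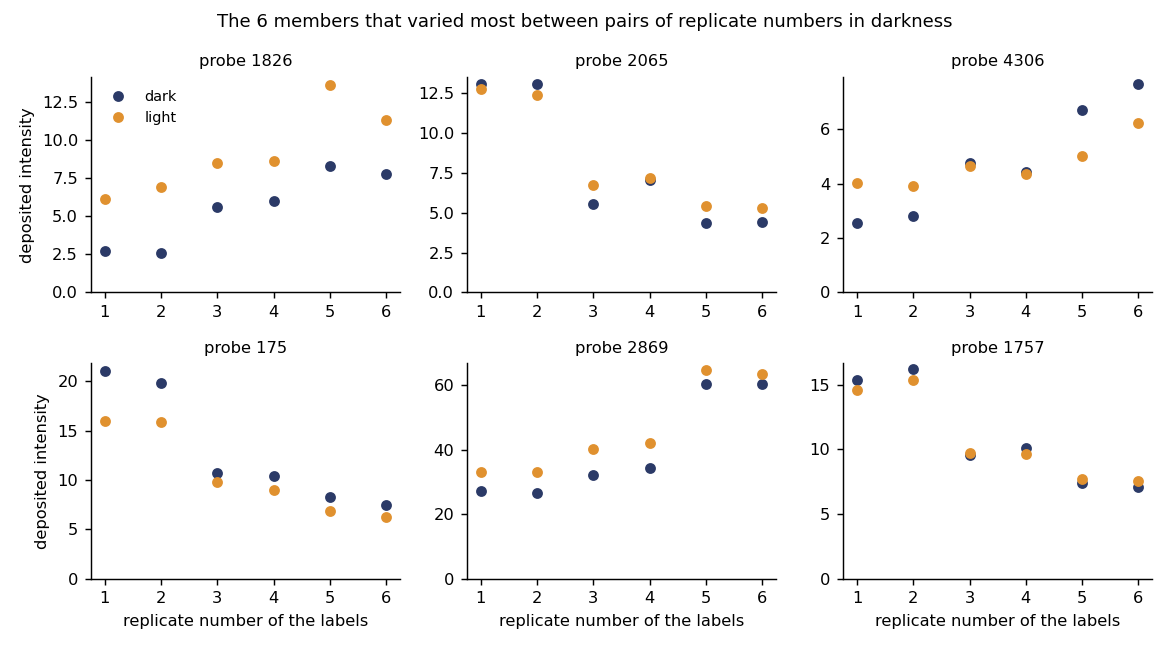
Deposited intensity against the replicate number of the labels for the 6 members with the largest ratio between pairs of consecutive numbers in darkness, dark and light columns as points. Within each panel numbers 1 and 2, 3 and 4, and 5 and 6 lie close together, and dark and light follow the same order of pairs in all 6 panels.

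At the edge of the list the values were close. Probes 874, 1159, 885, 1999 and 1419, at ranks 96 to 100, had dark means of 3.52, 3.43, 3.42, 3.42 and 3.41. Probes 4523, 3145, 271, 2538 and 454, at ranks 101 to 105, had dark means of 3.41, 3.38, 3.38, 3.37 and 3.31. Probe 874 was at 2.66 to 4.17 in darkness and 4.31 to 5.82 in light, without overlap (log2 0.47, limma adjusted p = 0.0952, 0.046 with the block and 0.0365 as deposited). Probes 1159, 1999 and 1419 had log2 differences of -0.23, -0.12 and -0.36, none past the threshold with or without the block. For probe 1999 the difference was 0.04 in median-centred columns.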

How the data were processed

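In the single table used here, the authors deposited an intensity on a linear scale for each of 3439 probes in 12 columns. Background treatment, scaling and scanner: not given in the sources used here. Precision is limited by how many arrays there are. Members are the 100 probes with the highest mean of the 6 dark columns as deposited. The members, ranks and lists were chosen with earlier results of these data known. Quantile normalisation left exact zeros at 0, and values were taken as log2(value + 2.53e-05), the lowest positive value, so log2 differences are on that scale while levels are deposited intensities. All 3409 probes not at 0 in every column entered the fit (limma 3.58.1, R 4.3.3, with lmFit followed by eBayes). Tests were two-sided, with Benjamini-Hochberg over all probes and a threshold of 0.05. The procedure was also run on simulated data, in which columns were drawn independently and probes with zeros were left out. That simulation cannot show how the fit behaves where columns vary together, as they do here. Tables and figures used Python 3.11.15, numpy 2.4.6, pandas 2.3.3 and matplotlib 3.10.9.

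The numbers 1 to 6 of the labels pair the columns by a check on the values: deviations from the group mean correlated by 0.66 to 0.786 between same-numbered columns over 2554 probes. Blocked values stand where they alter a call, or a count by over 1.5 times. Alternatives were other scalings, a larger offset (0.33), no dim probes, blocks, averaged numbers, ceiling values as missing, other choices of members and leaving out each column. Named are the first 25 ranks, probes at the ceiling, up to 12 calls in each direction, the 5 probes on either side of the edge, up to 4 of each function class (none matched) and, added later, every member the annotation names. The planned description of promoters was not made.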

Additional observations from a re-analysis of the deposited data

Results flagged for a closer look

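A single column lay well apart from its group in 7 of the 130 groups tested, each of 6 columns. By chance about 6.5 such groups would be found, or 1 in 20, if the groups were independent and no values were tied. Here same-numbered dark and light columns varied together. Probe 3499 was at 96.2 in dark column 2, against the ceiling of 100 in the other 5, and such a tie flags any single different value. NdhS (probe 77) was lowest in column 5 of both groups, at 6.65 in darkness against 7.49 to 7.95 and at 7.81 in light against 8.81 to 9.33. AT4G17070 (probe 577) was lowest in column 1 of both groups, at 3.20 in darkness against 6.62 to 8.55 and at 4.08 in light against 9.71 to 12.5. AT1G35510 (probe 473) was at 3.65 in light column 1, against 4.05 to 4.24, and probe 2464 at 3.62 in light column 6, against 2.78 to 2.95.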

How the results depend on the processing

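Across the named members and settings run, no log2 difference past the threshold in the main setting turned its direction; probe 4141, past it only with a block, was 0.30 there and -0.07 as deposited. The 12 members called became 33 with the replicate block (17 higher, 16 lower), 43 with the replicate block and the values as deposited, a setting added after the data had been seen (27 higher, 16 lower), 6 with consecutive numbers as a random block (1 higher, 5 lower) and 0 with consecutive numbers averaged (0 higher, 0 lower; fewer samples). Those higher numbered 7 as deposited, 11 in median-centred columns, 6 with the larger offset and 5 without dim probes, against 3. Those lower numbered 5 with members chosen by light mean, against 9. Leaving out 1 column gave 9 to 12 calls, 2 to 4 higher and 7 to 9 lower. The median log2 difference of -0.03 became 0.109 as deposited, with or without the block, 0.156 in median-centred columns, 0.028 with members by light mean and -0.0017 by the mean of 12 columns, and lay between -0.053 and -0.0088 on leaving out 1 column. The share of the total changed by less than the spread between columns under every other choice run. Where a call was lost, the cause was not tested. Values at the ceiling and dim probes limit what the intensities can show.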

Other observations

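Of the 100 probes, 68 carry an odd probe number, against 54.4% of all 3439 probes. The meaning of probe numbers on the array was not given in these sources.

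Genes named by members were also named by probes far from the top of the list. Probe 1161 names the 3 genes of probe 1431 together with AT4G07990, and had a mean of 0.699 ± 0.267 in darkness and 0.885 ± 0.270 in light (SD, n = 6), with a main log2 difference of 0.41 (limma adjusted p = 0.39; 0.0268 when blocked by replicate number, higher in 6 of 6 numbers), against -0.17 for probe 1431. Probe 1130, which names CSLC12 with CSLC5, CSLC04 and ATCSLC08, had 0.701 ± 0.145 in darkness and 0.552 ± 0.108 in light (SD, n = 6). Its log2 difference was -0.30 (limma adjusted p = 0.326; 0.0142 when blocked by replicate number, lower in 6 of 6 numbers). Probe 4208 names OPCL1 with AT1G20500, AT1G20490 and 4CL8, and had 0.374 ± 0.0910 in darkness and 0.210 ± 0.0316 in light (SD, n = 6). Its log2 difference was -0.78 (limma adjusted p = 0.0198, lower in 6 of 6 numbers), a call lost with consecutive numbers as a random block (limma adjusted p = 0.112) or averaged (0.393). Probe 2145, which also names OPCL1, had 0.42 (limma adjusted p = 0.287), and the difference between these probes was not tested. Probe 1153 names AT1G08845 alone with a log2 difference of -0.11 (limma adjusted p = 0.966), beside -0.42 for probe 2709. Probe 113, which names AT3G26630 with AT2G42920, differed by -0.23 on the log2 scale (limma adjusted p = 0.354; 0.0366 when blocked by replicate number), beside 0.18 for probe 2395. Probe 2428, which names AT5G01860, had -0.30 (limma adjusted p = 0.574, and 0.0313 when blocked by replicate number), beside 0.05 for probe 723. With consecutive numbers as a random block, probes 1161, 1130, 113 and 2428 did not pass (limma adjusted p = 0.577, 0.574, 0.586 and 0.735). Probes 668, 902, 815 and 3249, which share genes with probes 3215, 4444, 3033 and 473, had differences of 0.28, -0.02, -0.10 and -0.07, none past the threshold with or without the block. These other probes were found after the values had been seen.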
